A study of Mus musculus with 2 samples.

Results

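The cells described here are 246 Neurog3-high endocrine progenitors of the embryonic mouse pancreas, out of 1635 cell barcodes in the series. They were defined by their own counts of RNA molecules and not by the sort: a barcode needed at least 4 Neurog3 molecules, and low counts of the genes of finished endocrine and acinar cells (Chgb under 3, Ins1 and Ins2 together under 10, Gcg under 3, Ghrl under 3, Pyy under 5, and Cpa1, Ctrb1, Pnliprp1 and Clps together under 15). Only barcodes with at least 1000 molecules, of which at most 20% came from mitochondrial genes, were considered. Molecules are counted as unique molecular identifiers (UMIs). Of the 1635 barcodes 1609 passed the quality limits, and the rule kept 96 of the 535 barcodes of library 1 and 150 of the 1100 of library 2. The 2 libraries are replicates of a single group, wild-type mice at stage E14.5. The labels call the tissue pancreas and the cells islet. Endocrine cells had been enriched by flow sorting on Ngn3eGFP, a green fluorescent reporter of Neurog3, with gates for low and for high fluorescence, and the labels do not tell which gate a cell came from nor how the reporter was built. Every group compared below carries this reporter sort. Droplets were made on the inDrop platform and the RNA was amplified linearly as in CEL-Seq. The sources used here say that material came from 2 wild types, and not whether these were embryos, litters or pools. The p-values rest on how differences between groups vary over these 2 samples, with each gene's spread drawn towards a spread shared over genes. That variation may be technical only.

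Neurog3 is a basic helix-loop-helix transcription factor that switches on endocrine fate in the ductal epithelium of the pancreas, the trunk, and is made for only a short time. It binds E-box sequences and turns on further transcription factors, among them Insm1, Neurod1, Nkx2-2 and Pax4. It also turns on the Notch ligand Dll1, by which a progenitor restrains its neighbours: Notch receptors on the neighbours raise Hes1, a repressor of Neurog3. Trunk cells that keep Notch active hold Sox9 and Spp1 (osteopontin, a secreted phosphoprotein of ducts) and later form ducts.

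The median depth of progenitors was 3117 UMIs and 1864 genes in library 1 and 2767 UMIs and 1714.5 genes in library 2, against 3260 and 2855 UMIs over all cells past the quality limits. Levels below are CPM, the UMIs of a gene per 1000000 UMIs summed over the cells of a group within a library, and values are given for library 1 and then library 2. The sums over progenitors held 335489 and 443279 UMIs, and 97.3% of the 4558 genes at 50 CPM or more in progenitors lay within 2-fold between the libraries. Doublets called among progenitors numbered 2 and 0. The libraries shared 3 barcodes, of which 1 was a progenitor in both, and the copies of a shared barcode correlated at 0.263 to 0.315 across genes, beside a median of 0.309 over all pairs of progenitors from the 2 libraries. Macrophage markers summed to 80.5 and 124 CPM in progenitors and 70.4 and 94.1 CPM in trunk cells, against 11024 and 10421 CPM in macrophage cells, and 1 progenitor of library 2 also counted as a macrophage cell. Mesenchyme markers summed to 176 and 176 CPM in progenitors and 177 and 170 CPM in trunk cells, and endothelial markers to 134 and 126 CPM against 180 and 130 CPM. Neural crest and glia markers moved with the groups, at 77.5 and 90.2 CPM in progenitors against 156 and 179 CPM in trunk cells, with 7 and 6 of the 7 markers seen in progenitors. Acinar markers outside the rule were at 101 and 76.7 CPM against 83.4 and 52.5 CPM, and erythroid markers at 26.8 and 31.6 CPM against 28.7 and 19.9 CPM. Markers of later endocrine cells outside the rule summed to 894 and 1033 CPM in progenitors and 701 and 973 CPM in trunk cells. Over all cells past the quality limits they summed to 3032 and 4361 CPM. Nkx6-1, a member of that list, alone gave 417 and 456 CPM in progenitors. The part of these other cells in the differences below was not tested.

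Neurog3, which chose the cells, is described without a test. Progenitors were 18.2% of the cells past the limits in library 1 (exact 95% binomial interval 14.98% to 21.7%) and 13.9% in library 2 (11.9% to 16.1%); these and later intervals cover counting error only. A progenitor of library 1 carried 4 to 30 Neurog3 UMIs with a median of 8.5, and a progenitor of library 2 carried 4 to 39 with a median of 8. Summed over progenitors, Neurog3 (chr10:62133090-62134763, plus strand, GRCm38) stood at 3008 and 3625 CPM, among the most abundant genes that are neither mitochondrial nor ribosomal. Eef1a1, Tpt1, Actg1 and Ptma were above it in both libraries, and Actb was above it in library 1 (3094 CPM) and below it in library 2 (3481 CPM). The progenitors held 76.6% and 77.8% of the Neurog3 UMIs in cells past the quality limits. Trunk cells, defined by at most 1 Neurog3 UMI and at least 3 Spp1 UMIs within the same other limits, held 59.9 and 72.4 CPM. Among cells that should lack the gene, 7 of 58 macrophage cells of library 2 had a Neurog3 UMI (12.1%, median 2924 UMIs). So did 8 of its 99 acinar cells (8.08%, median 4170 UMIs). The highest counts in these cells were 5 and 9 UMIs, which reach the limit of 4. In library 1, with 7 macrophage and 13 acinar cells, the highest count was 1 UMI in each group.

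**Figure D1:**
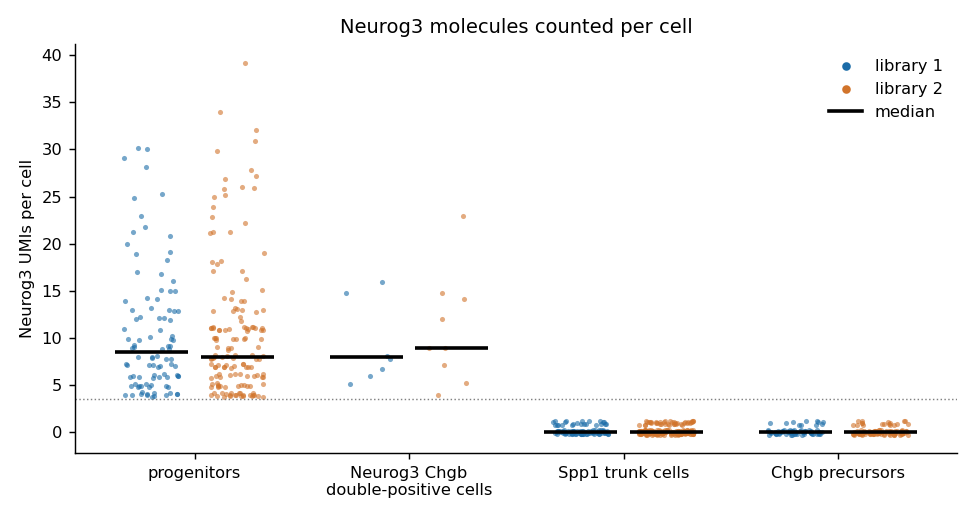
Neurog3 UMIs per cell (vertical axis) in progenitors, double-positive cells, trunk cells and Chgb precursors (at least 3 Chgb UMIs and at most 1 Neurog3 UMI) of each library; each point is a cell, spread sideways for visibility, and the black bar is the median. The dotted line between 3 and 4 UMIs is the limit of the rule, which progenitors exceed by definition; their medians are 8.5 and 8.

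The limits on other genes removed 17 and 19 of the 113 and 169 cells with at least 4 Neurog3 UMIs, most often through Chgb (12 and 11 cells). At the lower edge, 13 and 23 cells had exactly 4 Neurog3 UMIs, and 15 and 22 cells stopped at 3. Insm1 stood at 1399 and 1116 CPM in the cells with 4, against 728 and 798 CPM in the cells with 3. Nkx2-2 did not order the same way, with 476 and 1100 CPM at 4 UMIs against 1378 and 783 CPM at 3 UMIs. Spp1 was at 448 and 2605 CPM at 4 UMIs against 1639 and 3237 CPM at 3 UMIs.

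The other 3 genes that mark the cell type were all present. Btbd17, which encodes a BTB-domain protein, stood at 396 and 483 CPM in progenitors, against 13.0 and 18.1 CPM in trunk cells. Cbfa2t3, a transcriptional corepressor of the ETO family, stood at 581 and 783 CPM in progenitors, against 44.3 and 65.1 CPM in trunk cells. Mfng, a glycosyltransferase that modifies Notch receptors, stood at 182 and 208 CPM in progenitors, against 10.4 and 10.9 CPM in trunk cells. A UMI was found for Btbd17 in 55.2% and 64.7% of progenitors, for Cbfa2t3 in 68.8% and 68.7% and for Mfng in 34.4% and 42.7%. In macrophage cells of library 2, which were as deep, Cbfa2t3 reached 19.0% and Mfng 5.17%. Neurog3 and these 3 genes together summed to 326 and 219 CPM in macrophage cells. The same sums were 4167 and 5098 CPM in progenitors and 128 and 166 CPM in trunk cells. All 3 were above the levels of trunk cells in both libraries, while the excess of Neurog3 itself was fixed by the rule.

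The promoter windows of Neurog3 and of 3 genes that were higher in progenitors are shown because Neurog3, like its target Neurod1, binds E-boxes. Each window runs from 250 bases before to 50 bases after the start of a transcript, 5′ to 3′ on the gene's strand, from RefSeq on GRCm38.p6. Capitals mark every E-box, searched as CANNTG, which reads the same on both strands.
Neurog3, chr10:62132840-62133139, plus strand: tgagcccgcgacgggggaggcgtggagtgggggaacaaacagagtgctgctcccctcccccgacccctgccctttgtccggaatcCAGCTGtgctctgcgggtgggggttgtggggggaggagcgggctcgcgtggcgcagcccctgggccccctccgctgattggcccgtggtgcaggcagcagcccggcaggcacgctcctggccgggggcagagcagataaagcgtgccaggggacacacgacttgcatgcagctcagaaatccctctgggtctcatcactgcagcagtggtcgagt
Neurod1, chr2:79456587-79456886, minus strand: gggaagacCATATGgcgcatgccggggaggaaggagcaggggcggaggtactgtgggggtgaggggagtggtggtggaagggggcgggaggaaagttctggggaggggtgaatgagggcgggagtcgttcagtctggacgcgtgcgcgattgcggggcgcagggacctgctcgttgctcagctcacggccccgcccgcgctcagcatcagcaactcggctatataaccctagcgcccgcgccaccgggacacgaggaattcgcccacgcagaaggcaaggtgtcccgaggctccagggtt
Nkx2-2, chr2:147186353-147186652, minus strand: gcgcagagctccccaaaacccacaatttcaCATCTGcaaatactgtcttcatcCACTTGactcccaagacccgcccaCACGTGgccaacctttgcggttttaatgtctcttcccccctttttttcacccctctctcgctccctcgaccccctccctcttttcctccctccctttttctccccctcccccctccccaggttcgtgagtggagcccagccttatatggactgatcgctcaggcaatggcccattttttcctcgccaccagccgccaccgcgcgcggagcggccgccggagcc
Dll1, chr17:15375774-15376073, minus strand: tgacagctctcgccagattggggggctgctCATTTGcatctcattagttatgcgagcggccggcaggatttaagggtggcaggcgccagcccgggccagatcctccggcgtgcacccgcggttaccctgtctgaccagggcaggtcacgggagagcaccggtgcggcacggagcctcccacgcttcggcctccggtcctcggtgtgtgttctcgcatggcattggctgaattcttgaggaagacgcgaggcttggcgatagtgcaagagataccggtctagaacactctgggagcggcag
Dll1, second start, chr17:15376883-15377182, minus strand: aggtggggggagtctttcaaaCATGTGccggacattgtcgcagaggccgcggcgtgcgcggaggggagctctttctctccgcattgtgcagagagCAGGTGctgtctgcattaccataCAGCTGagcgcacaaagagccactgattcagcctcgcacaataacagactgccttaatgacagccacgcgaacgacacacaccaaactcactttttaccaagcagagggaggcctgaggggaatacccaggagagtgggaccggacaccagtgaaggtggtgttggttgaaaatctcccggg
Neurog3 and Neurod1 held 1 E-box each, Nkx2-2 held 3, and the 2 windows of Dll1 held 1 and 3. An E-box was present in 72.3% of the 32851 windows in the table, so holding 1 sets none of these genes apart. The narrower form CAGATG, which occurred in 17.2% of windows on either strand, was found in Nkx2-2 as its reverse complement, CATCTG, the first capital run of that window. The N-box CACNAG, the site type of Hes repressors, matched 1 place each in Neurod1, Nkx2-2 and the second Dll1 window, none of them overlapping an E-box, and matched 42.5% of all windows. These are matches of letters and not measured binding sites.

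To ask what sets progenitors apart from cells with Spp1 and little Neurog3 in the same libraries, the 246 progenitors were compared with 99 and 195 trunk cells. Progenitors carried far more RNA of endocrine transcription factors such as Insm1 and Pax4, and less of the trunk gene Sox9, the Notch target Hes1 and a part of the dividing-cell genes. By edgeR's quasi-likelihood test on the sums, with library as a block and Benjamini-Hochberg adjustment, 440 of 9934 genes were higher (4.43%) and 375 lower (3.77%) in progenitors at an adjusted p under 0.05. The median over all genes tested was -0.03 on the log2 scale. The rule's own genes and the 3 other markers were left out of testing, but genes that vary with them were selected along with them. Of the 815 calls, 813 had the same sign in both libraries. Each gene's spread is drawn towards a spread shared over genes, so a standard error (SE) may be less than the distance of a gene's 2 libraries.

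Of 34 endocrine transcription factors tested 15 rose, 2 fell, and the median of the list was 1.05 on the log2 scale. Insm1, a zinc-finger factor needed to complete endocrine differentiation, stood at 1222 and 1383 CPM in progenitors, against 46.9 and 86.8 CPM in trunk cells (log2 fold change 4.27 ± 0.21 SE, adjusted p 4.12e-89). A UMI of Insm1 was found in 76.0% and 85.3% of progenitors, against 14.3% and 13.8% of macrophage cells, whose median depths of 2724 and 2924 UMIs were close to those of progenitors. Insm1 lies at chr2:146221921-146225020 on the plus strand of GRCm38. Pax4, a homeodomain factor of the beta and delta lineages, had 322 and 273 CPM in progenitors against 7.82 and 9.05 CPM in trunk cells (5.05 ± 0.43, adjusted p 2.08e-28). It was detected in 34.4% and 37.3% of progenitors and in 0 of 7 and 0 of 58 macrophage cells. These shares count cells with a UMI at this depth and not cells that express the gene.

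Nkx2-2, a homeodomain factor of several endocrine lineages, stood at 999 and 1308 CPM in progenitors, against 156 and 206 CPM in trunk cells (2.66 ± 0.18, adjusted p 3.35e-47). Neurod1, a helix-loop-helix factor downstream of Neurog3, stood at 170 and 169 CPM in progenitors, against 13.0 and 21.7 CPM in trunk cells (3.23 ± 0.38, adjusted p 2.07e-15). Both genes were higher in progenitors in each library, as were the smaller members that follow. Of all 815 calls, 813 likewise had the same sign in both libraries. Myt1, a zinc-finger factor, reached 98.4 and 151 CPM against 26.1 and 12.7 CPM. Rfx6, a winged-helix factor of islet development, reached 77.5 and 97.0 CPM against 13.0 and 16.3 CPM, and Isl1, a LIM-homeodomain factor, 53.7 and 120 CPM against 15.6 and 23.5 CPM. Their log2 fold changes in edgeR were 2.76, 2.53 and 2.13 (adjusted p 1.59e-08, 5.92e-06 and 4.39e-05). Sox4, an SRY-box factor that was already abundant in trunk cells, rose less, with 1535 and 1978 CPM against 790 and 713 CPM (1.23 ± 0.15). Nkx6-1 (0.74 ± 0.20) and St18 (1.58 ± 0.43) also passed by edgeR, with adjusted p of 0.00575 and 0.00599, but neither passed with DESeq2.

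Further risers of the list, chosen after their values were seen, were Neurod2 (209 and 169 CPM against 23.5 and 7.24 CPM), Tox3 (373 and 614 CPM against 28.7 and 61.5 CPM) and Runx1t1, a relative of Cbfa2t3 (110 and 199 CPM against 49.5 and 50.7 CPM). The 2 members that fell, also chosen after their values were seen, were Hhex and Meis2. Hhex, a homeodomain factor of the early foregut and of delta cells, had 41.7 and 31.6 CPM against 133 and 137 CPM. Meis2 had 122 and 129 CPM against 190 and 268 CPM, and its call was lost with DESeq2. Among factors of later stages, Fev and Pax6 did not pass the threshold, nor did Pdx1. Fev, an ETS factor of the next stage, had 20.9 and 38.4 CPM against 28.7 and 23.5 CPM (edgeR adjusted p 0.869), and its sign turned when only deeper cells were used. Pax6, a paired-box factor of hormone-producing cells, had 80.5 and 67.7 CPM against 28.7 and 41.6 CPM (edgeR adjusted p 0.0518). Pdx1, a pancreatic factor shared by both stages, had 65.6 and 81.2 CPM against 57.3 and 143 CPM (edgeR adjusted p 0.568).

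Notch genes moved both ways. Of 25 tested, 4 rose and 4 fell, around a list median of 0.20 on the log2 scale. Among the ligands, Dll1 (chr17:15367354-15376872, minus strand, GRCm38) had 68.6 and 79.0 CPM in progenitors, against 10.4 and 21.7 CPM in trunk cells (2.12 ± 0.51, edgeR adjusted p 0.00122). Dner, an atypical ligand chosen after its values were seen, also rose (47.7 and 42.9 CPM against 10.4 and 16.3 CPM), with calls lost under several alternatives. Dll4 had 50.7 and 92.5 CPM against 31.3 and 27.1 CPM and missed the threshold (edgeR adjusted p 0.0623), and Jag1 was too low to be tested. Of the receptors, Notch1 and Notch2 fell: Notch1 had 44.7 and 56.4 CPM against 138 and 116 CPM (-1.28 ± 0.37, edgeR adjusted p 0.0107, lost with DESeq2), and Notch2 had 35.8 and 27.1 CPM against 128 and 127 CPM (-2.02 ± 0.42, edgeR adjusted p 7.32e-05).

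Among Notch targets, Hes1 had 53.7 and 63.2 CPM in progenitors, against 250 and 498 CPM in trunk cells (-2.65 ± 0.31, edgeR adjusted p 3.75e-15). Nrarp, a feedback inhibitor chosen after its values were seen, had 11.9 and 9.02 CPM against 59.9 and 48.8 CPM. Hes6, a relative that opposes Hes1, had 444 and 426 CPM against 93.8 and 76.0 CPM (2.37 ± 0.26, edgeR adjusted p 1.08e-16), and Numbl, related to the Notch inhibitor Numb and chosen after its values were seen, had 232 and 138 CPM against 49.5 and 21.7 CPM. Id factors, which bind and block the partners of helix-loop-helix proteins, included 2 that fell among 6 tested. Id2 had 56.6 and 49.6 CPM against 235 and 266 CPM (-2.25 ± 0.33), and Id3 had 14.9 and 0 CPM against 91.2 and 45.2 CPM.

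Of 24 genes of the trunk and duct tested, 10 fell and 3 rose, with a list median of -0.64 on the log2 scale, and DESeq2 called 8 lower and 1 higher. Sox9, which keeps trunk cells as progenitors, had 289 and 300 CPM in progenitors, against 784 and 1069 CPM in trunk cells (-1.65 ± 0.19, edgeR adjusted p 4.00e-15). It was reduced and not lost. Bicc1, an RNA-binding protein of duct cells, had 274 and 192 CPM against 808 and 1219 CPM (-2.12 ± 0.20). Anxa2 and Krt18, chosen after their values were seen, fell as well, to 26.8 and 85.7 CPM and to 200 and 165 CPM, against 336 and 291 CPM and 433 and 438 CPM. The 3 members that rose, chosen after their values were seen, were Krt7 (316 and 374 CPM against 162 and 208 CPM), the homeobox gene Prox1 (361 and 413 CPM against 195 and 235 CPM) and the forkhead gene Foxa2 (110 and 160 CPM against 49.5 and 79.6 CPM). The calls of Prox1 and Foxa2 were lost with DESeq2.

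**Figure D2:**
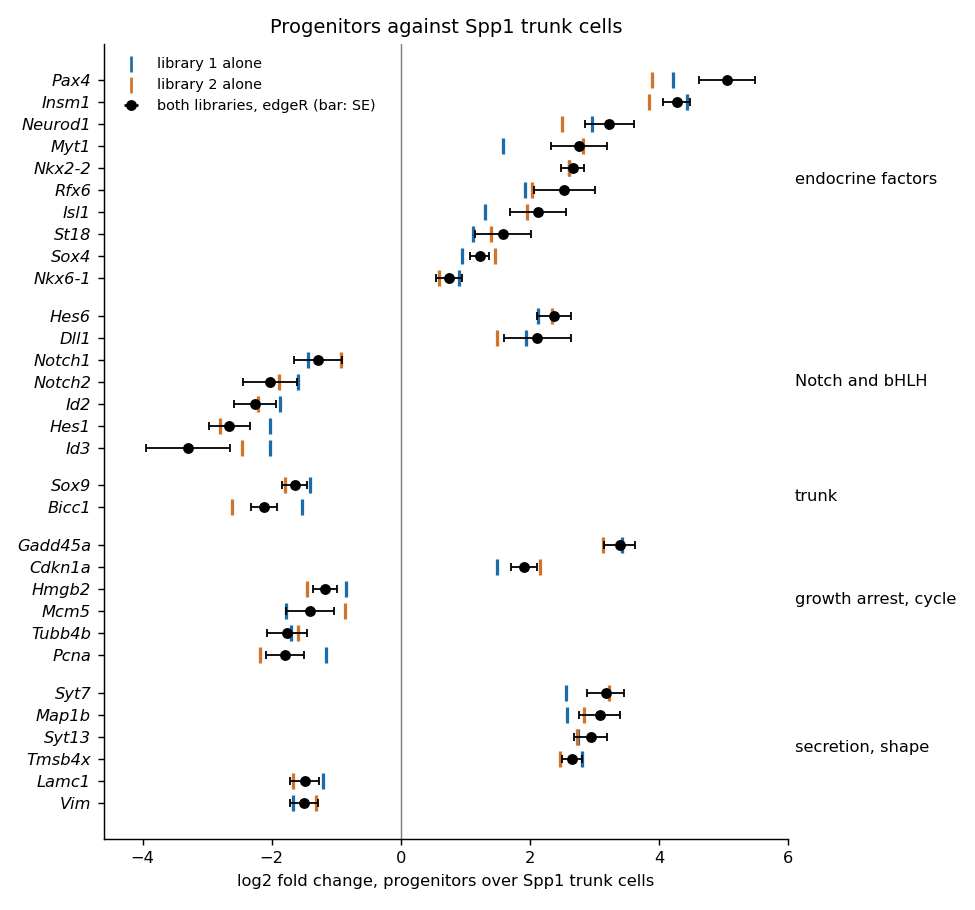
Log2 fold change of progenitors over trunk cells (horizontal axis) for genes of the fixed groups; the dot is the edgeR estimate over both libraries with its SE, and the ticks are the folds of each library alone. Insm1 (4.27) and Pax4 (5.05) lie far to the right and Hes1 (-2.65) far to the left, with the ticks of both libraries on the same side of 0.

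A part of the transcripts of dividing cells was lower in progenitors. Of S-phase genes, 8 of 40 tested fell and 0 rose, with a list median of -0.88 on the log2 scale. Of G2 and M genes, 17 of 46 fell and 0 rose, with a median of -1.10. At an unadjusted edgeR p under 0.05, 19 S-phase and 35 G2 and M genes were lower and 0 were higher in either list, while DESeq2 called 0 S-phase and 5 G2 and M genes lower and 0 higher. Pcna, the replication clamp, had 98.4 and 69.9 CPM against 232 and 351 CPM, and the chromatin protein Hmgb2 had 447 and 329 CPM against 810 and 923 CPM (edgeR adjusted p 1.92e-07 and 2.43e-08). Among brakes of the cell cycle and D cyclins, 5 of 22 rose and 3 fell. Gadd45a, a growth-arrest gene, had 766 and 929 CPM against 62.5 and 97.7 CPM (3.39 ± 0.24, edgeR adjusted p 1.07e-42). Cdkn1a, the cyclin-dependent kinase inhibitor p21, had 605 and 988 CPM against 208 and 213 CPM (1.91 ± 0.21, edgeR adjusted p 7.37e-18). Cyclin D1 (Ccnd1), chosen after its values were seen, went the other way, with 125 and 85.7 CPM against 347 and 279 CPM.

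Genes of the secretory granule and of exocytosis were higher in 10 of 33 tested and lower in 0 (13 and 0 at an unadjusted edgeR p under 0.05, 9 and 0 with DESeq2), although the rule caps Chgb, their best-known member. Syt13 and Syt7, synaptotagmins that act in vesicle fusion, had 423 and 406 CPM against 54.7 and 52.5 CPM and 355 and 370 CPM against 52.1 and 30.8 CPM (2.94 ± 0.26 and 3.17 ± 0.29). Chga, a granule protein chosen after its values were seen, was uneven between libraries, with 92.4 and 284 CPM against 41.7 and 38.0 CPM. Cytoskeletal, migration and guidance genes were higher in 9 of 39 and lower in 2. They were led by Tmsb4x, the actin-binding thymosin beta 4, with 2295 and 2448 CPM against 318 and 434 CPM (2.65 ± 0.15, edgeR adjusted p 2.60e-65). The neuronal microtubule genes Map1b (206 and 282 CPM against 26.1 and 30.8 CPM) and Tubb3 (268 and 226 CPM against 20.8 and 21.7 CPM) rose with it, Tubb3 being chosen after its values were seen.

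Junction, adhesion and matrix genes were lower in 13 of 40 tested and higher in 3. E-cadherin (Cdh1), chosen after its values were seen, had 227 and 221 CPM against 472 and 581 CPM, the intermediate filament gene Vim 191 and 235 CPM against 628 and 595 CPM, and the laminin chain gene Lamc1 227 and 183 CPM against 537 and 602 CPM. Of growth factor and Hippo genes 2 of 25 rose and 5 fell: Cyr61, a target of YAP, had 92.4 and 106 CPM against 375 and 753 CPM (-2.48 ± 0.26), whereas Amotl2, a regulator of YAP, had 709 and 920 CPM against 162 and 387 CPM (1.60 ± 0.20). Glucose genes included 1 riser and 5 fallers of 22, and the glucose transporter gene Slc2a2 had 47.7 and 27.1 CPM against 136 and 118 CPM. Immediate-early and heat-shock genes fell in 9 of 26 and rose in 2, with Klf6 at 23.8 and 29.3 CPM against 167 and 327 CPM. Genes of protein folding rose in 2 of 29 and fell in 1, and 0 of 79 ribosomal protein genes did either in edgeR or DESeq2, with 1 higher and 0 lower at an unadjusted edgeR p under 0.05.

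Metallothioneins, small metal-binding proteins picked after their values were seen, also fell: Mt1 had 432 and 359 CPM against 1488 and 1429 CPM (-1.89 ± 0.17 in edgeR), and Mt2 had 802 and 688 CPM against 2317 and 2287 CPM (-1.63 ± 0.14). Outside the lists, the 5 largest rises among genes with at least 50 CPM were Igfbpl1, Ppp1r14a, Cck, Lrrn2 and Gfra3. Igfbpl1, related to the binding proteins of insulin-like growth factors, had 289 and 413 CPM against 15.6 and 10.9 CPM (4.74 ± 0.39, edgeR adjusted p 9.93e-31). Cck, the gut hormone cholecystokinin, had 179 and 199 CPM against 13.0 and 7.24 CPM, and Gfra3, a receptor for GDNF-family ligands, 280 and 135 CPM against 26.1 and 5.43 CPM. The 5 largest falls were Scara3, Gdnf, Nfkbiz, Kifc3 and Tnfrsf21. Gdnf, a secreted ligand of that family, had 8.94 and 15.8 CPM against 86.0 and 132 CPM (-3.09 ± 0.52, edgeR adjusted p 3.35e-07).

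The next stage was sampled thinly: only 7 and 9 cells kept at least 4 Neurog3 UMIs together with at least 3 Chgb UMIs. Progenitors had far less Fev and less of several granule genes than these double-positive cells. In the same edgeR fit 151 of 9934 genes were higher (1.52%) and 35 lower (0.352%) in progenitors, of which 173 had the same sign in both libraries. The split depends on scaling, with 91 higher and 44 lower under RLE scaling and 74 and 42 with DESeq2. The median of all genes was 0.50 on the log2 scale with TMM and 0.37 with RLE, so higher values are read against it. Of 79 ribosomal protein genes tested, 28 were higher and 0 lower (61 and 0 at an unadjusted edgeR p under 0.05, 16 and 0 with DESeq2). Their list median was 0.72, beside the 0.50 of all genes. Fev had 20.9 and 38.4 CPM in progenitors, against 1036 and 1005 CPM in double-positive cells (-4.58 ± 0.39, edgeR adjusted p 4.56e-27). Neurod1 had 170 and 169 CPM against 729 and 826 CPM (-1.72 ± 0.35, edgeR adjusted p 0.00022). Its call was lost when progenitors and double-positive cells both needed at least 6 Neurog3 UMIs (-1.29, edgeR adjusted p 0.0529). Pax6 had 80.5 and 67.7 CPM against 230 and 933 CPM. Granule genes were lower in 7 of 33 tested and higher in 0 (10 and 1 at an unadjusted edgeR p under 0.05, 7 and 0 with DESeq2), with Chga at 92.4 and 284 CPM against 1074 and 1723 CPM, and Gnas, the alpha subunit of the stimulatory G protein, at 1490 and 1615 CPM against 5793 and 4954 CPM.

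On the other side, Sox4 had 1535 and 1978 CPM in progenitors, against 307 and 538 CPM in double-positive cells (2.52 ± 0.26, edgeR adjusted p 5.08e-18). Cdkn1a had 605 and 988 CPM against 153 and 323 CPM (2.20 ± 0.37), and Gadd45a 766 and 929 CPM against 345 and 179 CPM (2.18 ± 0.37). Sox9 had 289 and 300 CPM against 76.7 and 71.8 CPM (2.46 ± 0.58). Hes6 had 444 and 426 CPM against 269 and 144 CPM, and its call was lost with RLE scaling, with DESeq2, without the library block, at 6 Neurog3 UMIs and in cells with at least 2500 UMIs (adjusted p 0.0501 to 0.0794). The 5 largest rises outside the lists, Fscn1, Tinagl1, Wsb1, Tbc1d9 and Sec31a, were at 0 UMIs in all 16 double-positive cells. For a sum that small 3 UMIs would already make 115 and 108 CPM, so these zeros do not show that the genes are absent.

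To see whether progenitors change with the amount of Neurog3, those of each library were divided at the median Neurog3 CPM into an upper group of 48 and 75 cells and a lower group of 48 and 75 cells. The upper cells were shallower, with median UMIs of 2855 and 2418 against 3595 and 3067. The rule itself ties this division to depth. A cell of library 1 with 4 Neurog3 UMIs among 1066 had 3752 CPM, above the median of 2872 CPM. The shallowest cells therefore could not enter the lower group. Few genes passed. By edgeR 1 of 4864 genes was higher (0.0206%) and 2 were lower (0.0411%) in the upper group, while 144 and 173 had an unadjusted p under 0.05. DESeq2 kept 1 of these 3 calls. Tmsb4x was the gene that rose, with 2941 and 2795 CPM in the upper group against 1799 and 2150 CPM in the lower group (0.53 ± 0.09, edgeR adjusted p 0.0346). That call was lost with RLE scaling, without the library block and without called doublets.

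The 2 genes that fell were Mt1 (chr8:94179082-94180327, plus strand, GRCm38) and its neighbour Mt2 (chr8:94172664-94173568, plus strand). Mt1 had 123 and 156 CPM in the upper group, against 670 and 532 CPM in the lower group (-2.06 ± 0.25, edgeR adjusted p 0.00201). Mt2 had 302 and 362 CPM in the upper group, against 1187 and 968 CPM in the lower group (-1.67 ± 0.17, edgeR adjusted p 0.000534). Either gene was lower in the upper group in each library, and all 3 called genes had the same sign in both. When Spp1 detection was a further term in the fit, Mt1 (-1.76, adjusted p 0.00047) and Mt2 (-1.25, adjusted p 0.011) still passed by edgeR. The Mt1 call was lost with DESeq2 (adjusted p 0.0859). Neither passed in edgeR when the cells were split at the median of raw Neurog3 UMIs instead (adjusted p 0.87 for both).

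Divided by Neurog3 CPM into equal bottom, middle and top groups in each library, progenitors gave lower Mt1 and Mt2 at each step. Mt1 stood at 682, 441 and 81.8 CPM in library 1 and at 602, 300 and 148 CPM in library 2. Mt2 stood at 1462, 403 and 327 CPM in library 1 and at 1185, 433 and 394 CPM in library 2. Spp1, which is not tested because it defines the trunk cells, ran 1019, 681 and 368 CPM in library 1 and 1920, 824 and 816 CPM in library 2. Sox9 was highest in the bottom group, at 540, 115 and 133 CPM in library 1 and 475, 195 and 211 CPM in library 2. Insm1 was lowest in the bottom group, at 907, 1410 and 1452 CPM in library 1 and 1242, 1354 and 1568 CPM in library 2. Hes6 ran 382, 441 and 532 CPM in library 1 and 285, 475 and 534 CPM in library 2.

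**Figure D3:**
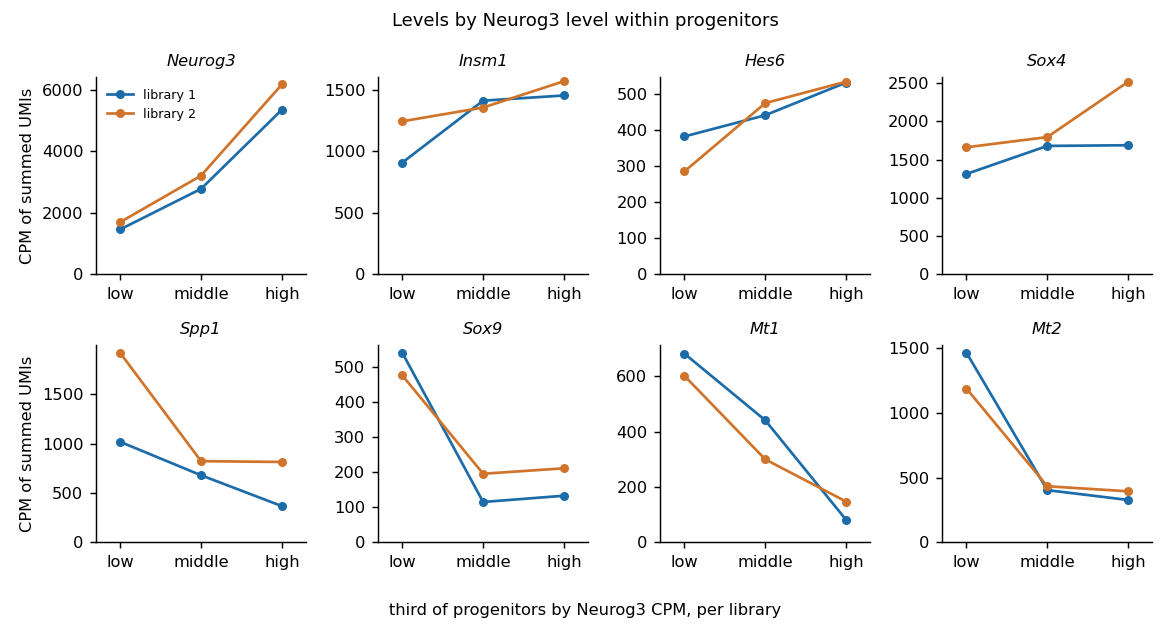
Level in CPM of summed UMIs (vertical axes) in the bottom, middle and top group of progenitors by Neurog3 CPM, with 1 line per library. Mt1 and Mt2 fall in both libraries, Mt1 to 81.8 and 148 CPM in the top group, while Insm1 is lowest in the bottom group.

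Between the upper and lower groups, Insm1 (1570 and 1603 CPM against 955 and 1194 CPM, 0.56 ± 0.11, adjusted p 0.0874) and Sox9 (123 and 195 CPM against 417 and 390 CPM, -1.32 ± 0.28, adjusted p 0.0988) missed the threshold of edgeR. Both passed when only cells with at least 2500 UMIs were used (adjusted p 0.00024 and 0.0005), a setting that called 45 genes. Other targets of Neurog3 did not pass: Nkx2-2 changed by 0.35 ± 0.17 with opposite signs in the libraries, Neurod1 by 0.49 ± 0.31, Hes6 by 0.59 ± 0.19 and Dll1 by 0.26 ± 0.44 on the log2 scale (edgeR adjusted p 0.771, 0.844, 0.593 and 0.97). The signs for Neurod1 and Dll1 turned under 1 alternative each. A p that misses the threshold does not show that these genes are level across Neurog3.

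Spp1 divided the progenitors further. A UMI of Spp1 was found in 42 of 96 progenitors of library 1 (43.8%, exact 95% interval 33.6% to 54.3%) and in 72 of 150 of library 2 (48.0%, 39.8% to 56.3%). Where detected, its median was 4 and 5 UMIs and its highest value 23 and 27, and only 11 and 10 of these cells had a single UMI. With every cell thinned to 1000 UMIs, the expected share was 28.8% and 39.2% of progenitors, against 5.52% and 5.69% of beta cells, defined by at least 10 Ins1 and Ins2 UMIs. Unthinned, 27.7% and 11.3% of beta cells had a UMI, with medians of 4173 and 3522 UMIs. Detection is also a matter of depth: the Spp1-detected progenitors had median UMIs of 3978.5 and 2889.5, against 2830.5 and 2673.5 in the undetected ones. Pooled Neurog3 was 2602 and 3233 CPM in detected cells and 3465 and 4023 CPM in undetected cells, given without a test because the rule used it.

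Progenitors with Spp1 had more RNA of the trunk genes Sox9 and Bicc1 and of the Notch ligand Dll1 than those without, and less of Pax4, Neurod1 and Nkx2-2. By edgeR 99 of 5059 genes were higher (1.96%) and 90 lower (1.78%) with Spp1, all with equal sign in the 2 libraries. Of these 189 genes, 13 were called by DESeq2, and edgeR called 17 when progenitors needed at least 6 Neurog3 UMIs. Both called doublets lay among the detected cells of library 1, and without them 125 genes were called, 124 of them among the 189.

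Among Notch genes, Dll1, Hes1 and Hes6 differed between the groups by edgeR. Dll4 (0.03 ± 0.49, opposite signs in the libraries) and Notch1 (1.46 ± 0.62) did not pass (edgeR adjusted p 0.992 and 0.24). Dll1 had 124 and 143 CPM in detected progenitors, against 6.35 and 13.6 CPM in undetected progenitors (3.62 ± 0.63, edgeR adjusted p 3.35e-06). Hes1 had 95.6 and 112 CPM against 6.35 and 13.6 CPM (3.26 ± 0.68, edgeR adjusted p 0.000203). DESeq2 gave neither gene an adjusted p. With at least 6 Neurog3 UMIs, Dll1 kept its call (3.68, edgeR adjusted p 0.03) and Hes1 lost it (3.05, edgeR adjusted p 0.12). Counted cell by cell, Dll1 was found in 14 and 22 progenitors, of which 13 and 19 also had Spp1. Hes1 was found in 10 of 96 and 18 of 150 progenitors, and in 3 of the 14 and 5 of the 22 with Dll1. Most Dll1 cells had no Hes1 UMI at this depth, but neither did most progenitors as a whole. Hes6 was lower with Spp1 (292 and 318 CPM against 616 and 536 CPM, -0.89 ± 0.23, edgeR adjusted p 0.00667). Of 14 Notch genes tested, 2 rose, 1 fell and the list median was 0.27, and DESeq2 called 0 of the list.

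Of 14 trunk and duct genes tested, 4 rose and 1 fell. Sox9 had 427 and 439 CPM in detected progenitors, against 133 and 159 CPM in undetected progenitors (1.57 ± 0.29, edgeR adjusted p 1.71e-05). Bicc1 had 461 and 318 CPM against 63.5 and 63.6 CPM (2.58 ± 0.35), and Dbi, an acyl-CoA binding protein, had 410 and 322 CPM against 57.1 and 50.01 CPM (2.76 ± 0.37). The member that fell, chosen after its values were seen, was Krt7 (253 and 206 CPM against 387 and 546 CPM). Mt1 and Mt2, picked here because they moved with Neurog3 level, had 719 and 631 CPM against 108 and 81.8 CPM and 1338 and 1146 CPM against 197 and 223 CPM (2.85 ± 0.28 and 2.56 ± 0.20 in edgeR). With both divisions crossed, Mt1 was at 211 and 285 CPM in Spp1-detected cells of the upper Neurog3 group, and at 1022 and 855 CPM in those of the lower group. In undetected cells it was at 50.3 and 59.8 CPM in the upper group and at 166 and 107 CPM in the lower group. Both divisions show in Mt1, which was highest in Spp1-detected cells of low Neurog3.

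Of 26 endocrine transcription factors tested, 7 were lower with Spp1 and 1 higher, with a list median of -0.89; DESeq2 called 1 lower and 0 higher. Pax4 had 197 and 134 CPM in detected progenitors, against 463 and 414 CPM in undetected progenitors (-1.41 ± 0.28, edgeR adjusted p 0.000112). Neurod1 had 107 and 53.7 CPM against 241 and 286 CPM (-1.75 ± 0.37, edgeR adjusted p 0.000239), and Nkx2-2 had 613 and 873 CPM against 1434 and 1750 CPM (-1.09 ± 0.15, edgeR adjusted p 2.80e-10). Insm1 differed less, at 1169 and 967 CPM against 1282 and 1805 CPM (-0.52 ± 0.14, edgeR adjusted p 0.0098). Its change rests on library 2, where it was -0.89 alone, against -0.13 in library 1. Myt1 fell by 1.76 on the log2 scale, as did Neurod2 by 1.37 and Runx1t1 by 1.89, both chosen after their values were seen, and Sox4 was the member that rose (1697 and 2324 CPM against 1352 and 1628 CPM, 0.44 ± 0.12, edgeR adjusted p 0.0149).

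Junction and matrix genes rose in 7 of 31 tested and fell in 0 by edgeR (11 and 0 at an unadjusted p under 0.05, 0 and 0 with DESeq2), among them Col18a1 (253 and 367 CPM in detected against 44.4 and 136 CPM in undetected cells) and Lamb1 (292 and 300 CPM against 114 and 77.3 CPM), both of basement membrane. Growth factor and Hippo genes rose in 3 of 14: Cyr61 had 152 and 184 CPM against 25.4 and 27.3 CPM, the receptor gene Fgfr2 157 and 175 CPM against 38.1 and 18.2 CPM, and the Hippo effector Yap1, chosen after its values were seen, 124 and 76.1 CPM against 44.4 and 9.09 CPM. The chemokine gene Cxcl12 had 191 and 287 CPM against 44.4 and 63.6 CPM. Granule genes fell in 3 of 15, with Syt7 at 197 and 282 CPM against 533 and 459 CPM. Chga fell by 1.94 on the log2 scale, a change that came from library 2 (62.7 CPM against 509 CPM) and was small in library 1 (84.3 CPM against 102 CPM). Tmsb4x had 1787 and 1626 CPM against 2869 and 3282 CPM. Outside the lists the 5 largest rises were Mest, Ugt2b34, Pygb, Kcnk1 and Adamts1, and the 5 largest falls Mast3, Eral1, Atp2a3, Kcnb2 and Cldn11. Adamts1, a secreted metalloprotease, had 202 and 269 CPM against 44.4 and 13.6 CPM, and Cldn11, a tight-junction claudin, 28.1 and 31.3 CPM against 216 and 173 CPM.

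**Figure D4:**
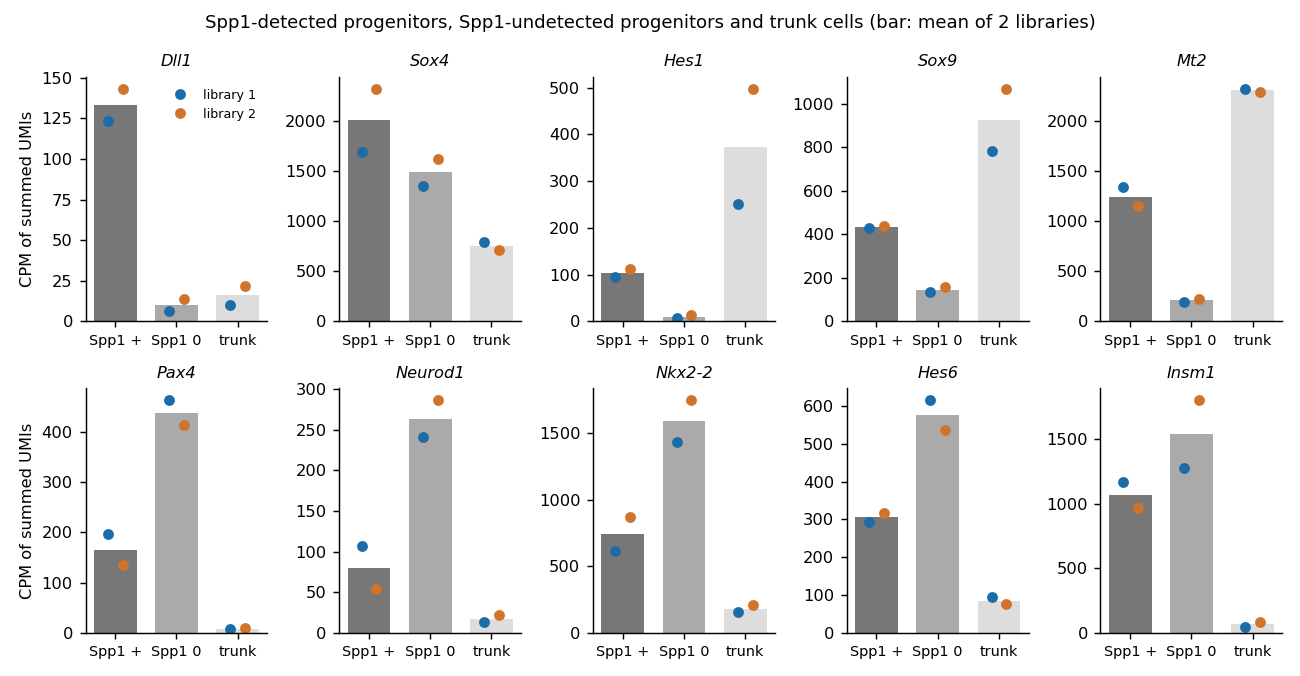
Level in CPM of summed UMIs (vertical axes) in Spp1-detected progenitors, Spp1-undetected progenitors and trunk cells; points are the 2 libraries and the bar is their mean. Dll1 is highest in Spp1-detected progenitors (124 and 143 CPM), while Sox9 and Hes1 lie between the undetected progenitors and the trunk cells.

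Spp1-detected progenitors were then set against trunk cells, a comparison added after the other results were seen. Of 27 endocrine factors tested, 10 rose over trunk cells and 1 fell, and of 21 trunk and duct genes 1 rose and 5 fell. Of 19 Notch genes 4 rose and 2 fell, around a list median of 0.43 on the log2 scale. By edgeR 209 of 6414 genes were higher (3.26%) and 110 lower (1.71%) than in trunk cells. The cells with Spp1 enter both this comparison and the one before, so the 2 sets of values are not independent of each other. Insm1 (3.98 ± 0.20), Pax4 (4.20 ± 0.44), Nkx2-2 (2.06 ± 0.15) and Neurod1 (2.11 ± 0.49) were above the trunk level. Sox9 (-1.07 ± 0.17), Hes1 (-1.80 ± 0.29), Mt1 (-1.09 ± 0.13) and Mt2 (-0.87 ± 0.10) were below it, Mt1 and Mt2 being chosen after their values were seen. For these 4 genes the detected progenitors therefore lay between the undetected progenitors and the trunk cells.

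Dll1 did not lie between. It had 124 and 143 CPM in detected progenitors, against 10.4 and 21.7 CPM in trunk cells (3.03 ± 0.48, edgeR adjusted p 0.000144), and was called with DESeq2 as well (3.12, adjusted p 0.0088). Its level with Spp1 was therefore above both the undetected progenitors and the trunk cells. Of the 99 genes higher with Spp1, 56 lay between undetected progenitors and trunk cells in both libraries, and 22 lay above trunk cells in both. Against trunk cells, edgeR called 9 of the 99 higher and 23 lower, beside 3.26% and 1.71% of all genes tested. Other genes above both groups, chosen after their values were seen, were Tmem171, Foxo6, Sox4 and Id1. Tmem171, a membrane protein, had 214 and 470 CPM in detected progenitors, against 114 and 155 CPM in undetected progenitors and 49.5 and 61.5 CPM in trunk cells. Foxo6, a forkhead factor, had 95.6 and 152 CPM, against 19.0 and 45.5 CPM and 18.2 and 28.9 CPM in the same groups. Sox4 had 1697 and 2324 CPM, against 1352 and 1628 CPM and 790 and 713 CPM. Over trunk cells these 3 genes changed by 2.63 ± 0.31, 2.40 ± 0.44 and 1.44 ± 0.12 on the log2 scale. Id1 had 163 and 193 CPM in detected progenitors, against 88.8 and 54.6 CPM in undetected progenitors and 62.5 and 70.6 CPM in trunk cells (1.44 ± 0.33 over trunk cells, edgeR adjusted p 0.00871, lost with DESeq2).

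Cell cycle transcripts were compared on the same scale. G2 and M genes summed to 3440 and 3233 CPM in Spp1-detected progenitors, 2177 and 1878 CPM in undetected progenitors and 5619 and 5552 CPM in trunk cells. Chgb precursors, cells with at least 3 Chgb UMIs and at most 1 Neurog3 UMI, gave 2053 and 1744 CPM. S-phase genes summed to 2288 and 2449 CPM in Spp1-detected progenitors, 2132 and 1741 CPM in undetected progenitors and 3302 and 3843 CPM in trunk cells. Few single genes passed between the Spp1 groups: 1 of 22 G2 and M genes, Hmgb2 (556 and 452 CPM with Spp1 against 324 and 205 CPM without), and 0 of 19 S-phase genes in edgeR. At an unadjusted edgeR p under 0.05, 7 G2 and M genes were higher with Spp1 and 0 lower, as were 4 and 1 S-phase genes, and DESeq2 called 0 in either list. At least 3 UMIs over 6 cycle genes were found in 26.2% and 13.9% of detected and in 5.56% and 5.13% of undetected progenitors. Thinned to 1000 UMIs per cell the shares were 3.48% and 3.61% against 2.68% and 2.25%, a smaller gap than without thinning, and 10.2% and 13.1% of trunk cells. Ccnd1 had 208 and 152 CPM with Spp1 against 31.7 and 18.2 CPM without (2.86 ± 0.50, edgeR adjusted p 2.59e-06).

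**Figure D5:**
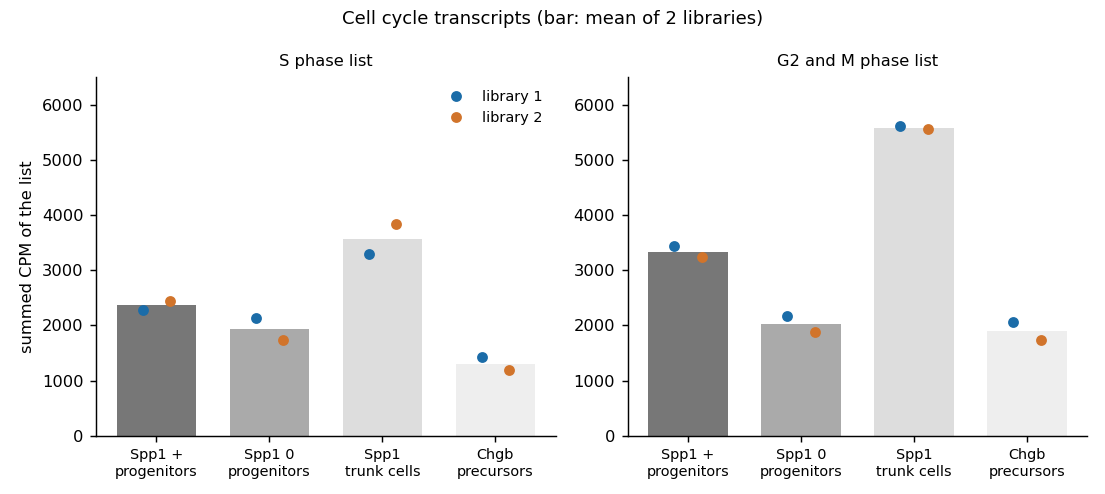
Summed CPM of the S-phase list and of the G2 and M list (vertical axes) in Spp1-detected progenitors, Spp1-undetected progenitors, trunk cells and Chgb precursors; points are the 2 libraries and bars their mean. G2 and M transcripts sum to 3440 and 3233 CPM in the detected progenitors, above the undetected ones and below the trunk cells.

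Within single progenitors, endocrine and trunk genes overlapped. Sox9 was found in 34 and 55 progenitors, and 25 and 42 of these also had Insm1. Pax4 was found in 33 and 56 progenitors, and Neurod1 accompanied it in 13 and 25 of them. Over all progenitors, Insm1 was found in 73 of 96 and 128 of 150, and Neurod1 in 29 and 42. A cell without a UMI may still express the gene at these depths, while free RNA and doublets can add joint detections. The counts are therefore limits in neither direction, and whether these genes go together was not tested.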

How the data were processed

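For each library the authors deposited a table of UMI counts, neither scaled nor normalized, over 25507 gene symbols. GRCm38 was the genome build per the submitters' processing notes. How reads were aligned and counted, and whether strand was used, is not given in the sources used here. The rule, the groups, the 15 gene lists and the tests were chosen with earlier results of these data known, and the comparison of Spp1-detected progenitors with trunk cells was added after the data were seen.

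UMIs were summed per library and group and fitted in edgeR 4.0.16 (R 4.3.3; quasi-likelihood, TMM scaling, default filter on low counts, Benjamini-Hochberg at 0.05). Progenitors, trunk cells, double-positive cells and Chgb precursors entered 1 fit of 8 sums with 3 residual degrees of freedom; each division of the progenitors was a fit of 4 sums with 1, and the added comparison a fit of 6 sums with 2. Library was a block since each library supplies both sides of a comparison. SEs were derived from the fold change and its F statistic, and folds of single libraries add 10 CPM. DESeq2 1.42.0, other scaling, filters and limits were tried as alternatives. Scrublet was run in scanpy 1.11.5, called 13 and 11 doublets and removed none from the values given. Thinned shares are expected values from the hypergeometric distribution at 1000 UMIs. The fits were also run on simulated sums with known changes, drawn with a single spread for all genes. Those sums do not mimic the choice of cells by their own counts.

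Genes were named by rule: 24 given whatever their values, up to 2 members per list with the lowest adjusted p, and the 5 largest rises and falls outside the lists, all past the threshold with the same sign in both libraries. Any other member is marked in the text as picked later. Gene positions follow the GENCODE M21 annotation of GRCm38, which held 116 of 117 symbols; Cyr61 was not found. Exons of 6 genes overlap another on the same strand, among them Neurod1, Notch2, Numbl, Fgfr2 and Spp1, and exons of 26 overlap one on the other strand, among them Neurog3, Dll1, Dll4, Nkx2-2, Sox4, Cdkn1a, Gadd45a, Bicc1, Ccnd1, Gnas and Mt2, so their levels are uncertain. Promoters were in the RefSeq table for 8 of 12 genes. Some genes of the lists are counted in them but not reported here by name.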

Additional observations from a re-analysis of the deposited data

How the results depend on the processing

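The gate decides the number of progenitors: 246 became 283 at 3 Neurog3 UMIs, 186 at 6, and 280 at 2 UMIs with 1000 CPM. Against trunk cells DESeq2 called 276 genes, all of them among the 815 reported. Against double-positive cells it called 116, no filter on low counts gave 290, and leaving out the replicate block gave 110. Between the Neurog3 groups, where 3 genes passed, there were 1 call with DESeq2, 21 with no filter, 57 at 3 Neurog3 UMIs, 10 at 6, 26 at 2 UMIs with 1000 CPM, 45 in cells with at least 2500 UMIs and 0 when split by raw UMIs. Between the Spp1 groups, where 189 passed, there were 13 with DESeq2, 124 with no filter, 71 without the replicate block, 125 without called doublets, 17 at 6 Neurog3 UMIs and 116 with the Neurog3 division as a further term. Spp1-detected progenitors against trunk cells gave 319 calls, and 119 with DESeq2. The fit with no replicate block called 612, 2 and 223 genes against trunk cells, between the Neurog3 groups and for the added comparison. Signs turned for Fev against trunk cells in cells with at least 2500 UMIs (-0.49), for Dll1 between the Neurog3 groups at 6 UMIs (-0.38) and for Neurod1 there when split by raw UMIs (-0.054), none of them past the threshold. The causes were not tested. Counts of calls without 1 library could not be had, since no residual degree of freedom is left. Folds of single libraries add 10 CPM and so are not on the scale of the edgeR estimates. Pax4 against trunk cells, for example, had log2 folds of 4.22 and 3.89 in the single libraries, beside 5.05 in edgeR. How far the calls rest on 1 library was therefore not tested. Depth limits genes of few UMIs and all statements on the 16 double-positive cells.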
